A study of Mus musculus with 36 samples.

Results

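The brains of 6 juvenile female mice were sequenced, 3 from Chd8+/S62X heterozygotes (HT 1 to 3) and 3 from wild-type females (WT 1 to 3), all C57BL/6 and taken at P25, the 25th day after birth. They were chosen by their labels, as the P25 female columns of the deposited expression table, and make up 6 of the 36 libraries of the study. The other libraries come from males of the same age and from both sexes at P0 and P80, again 3 mice of each genotype. S62X places a stop codon near the start of the Chd8 coding sequence, and every cell of an HT mouse carries it in a single copy of the gene. Whole brain RNA was sequenced as paired-end TruSeq libraries. The deposited values sum to between 33831776 and 34676109 in these 6 libraries and put 25266 to 25782 genes above 0 in each. Of the 29799 genes in the table, 18213 had a mean normalized value of at least 10 over the 6 libraries and were tested. Nothing in the labels gives the litters of the mice, so p-values measure the spread between these 3 brains of each genotype.

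CHD8 is an ATP-dependent chromatin remodeler of the CHD family. It binds the promoters of many active genes, and it is known as a negative regulator of β-catenin and of p53 target genes. Truncating mutations of a single copy are a known cause of autism spectrum disorder, and heterozygous mice are used as a model of it. RNA of a whole brain is an average over neurons, glia, vessels and all regions.

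The labels were checked first. Xist, the RNA that coats the inactive X chromosome, lay between 27373 and 32265 in all 6 libraries. Uty, on the Y chromosome, was at 0 in all 6, and the other Y-linked genes Ddx3y, Kdm5d and Eif2s3y did not exceed 4.13, against 1107 or more for each in every P25 male library. Markers of neurons, oligodendrocytes, astrocytes, microglia and vessels, and of telencephalon, olfactory bulb, diencephalon, midbrain, hindbrain and cerebellum, were all present, as the whole brain label states. Mbp, the myelin basic protein gene, averaged 223719, and Slc17a7, the glutamate transporter of cortical excitatory neurons, lay between 27070 and 29025.

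A pair of libraries, 1 of each genotype, stood apart from the other 4 in immediate early and blood genes. The SD of log2 differences from the mean of the other libraries was 0.211 for HT 2 and 0.188 for WT 1, against 0.165 to 0.183 for the rest. By this measure only HT 2 was distinct, and WT 1 was close to the rest. The immediate early genes, which neurons switch on within minutes of activity, were low in both. Fos measured 1742, 402 and 956 in HT 1 to 3 and 252, 1742 and 1520 in WT 1 to 3, and Egr1 measured 8575, 3505 and 6234 in HT and 2961, 8738 and 7380 in WT. Blood genes were high in the same 2 libraries, with Hbb-bs, an adult β-globin gene, at 10611 in HT 2 and 9787 in WT 1 against 5591 to 6847 in the others. Gene lists are therefore given below also without HT 2 and WT 1 where their median turned or moved by over 1.5 times.

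No gene passed an adjusted p of 0.05 between the genotypes in P25 females (limma on log2(value + 1), Benjamini-Hochberg over 18213 genes, 0% called). At an unadjusted p under 0.05 there were 1094 genes (6.01%), of which 543 (2.98%) were higher in HT and 551 (3.03%) were lower. All 3 HT libraries lay above all 3 WT libraries for 1115 genes (6.12%) and below them for 1050 genes (5.77%), and the HT mean was the higher one for 8943 genes (49.1%). The precision differed with the level of a gene. The median standard error of the log2 difference was 0.29 for the 4891 genes with a mean below 100, 0.098 for the 6375 genes between 100 and 1000, and 0.053 for the 6947 genes above that, and among the last none differed by more than 1 on the log2 scale. The plot of all genes shows this narrowing, with the named genes at the edges of the cloud.

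**Figure D1:**
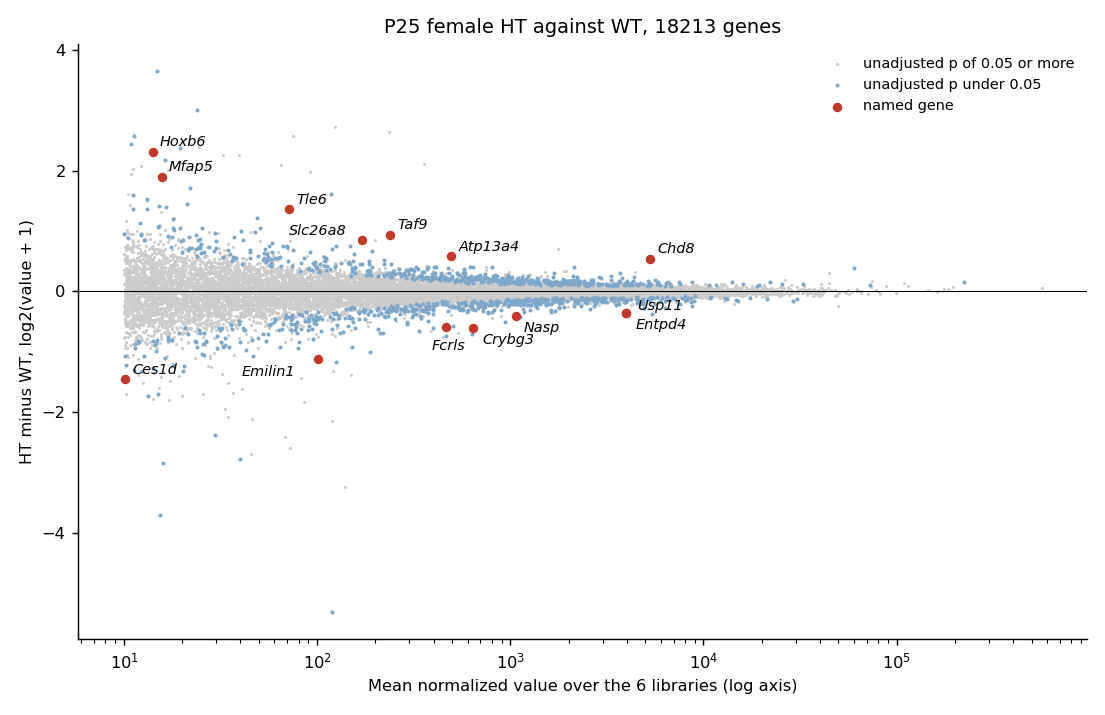
HT minus WT difference of log2(value + 1) in P25 females (vertical axis) against the mean normalized value over the 6 libraries (horizontal log axis) for 18213 genes, with genes of unadjusted p under 0.05 in blue and 14 named genes in red. Differences spread widely below a mean of 100 and narrow above 1000, where Chd8 (0.54), Usp11 and Entpd4 stand outside the cloud.

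A group of 4 genes shared the smallest adjusted p, 0.0723, and these were Chd8, Tle6, Usp11 and Entpd4. Chd8 and Tle6 were higher in HT females, by 1.46-fold and 2.62-fold in the group means, and Usp11 and Entpd4 were lower, by 1.28-fold each. In each of the 4 the HT and WT libraries did not overlap. When the spread was estimated from all 12 P25 libraries, males included, the differences stayed as they were and the adjusted p (limma) became 0.0144 for Chd8, 0.024 for Tle6 and 0.0072 for both Usp11 and Entpd4, so that these 4 genes and no others passed. With 1 model of all 36 libraries the adjusted p was 1.0 for Chd8 and Entpd4 and 0.836 for Usp11 and Tle6, and no gene passed.

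The promoters of these genes are shown because CHD8 is known mainly as a protein of active promoters and because 3 of the 4 have an entry in the RefSeq table (GRCm38.p6). Each window runs from 250 bases before an annotated start to 30 bases from it, 5′ to 3′ on the strand of the gene. Capitals mark CCGGAAG, the core of the sites of ETS family factors, and AAGATGGC, the core of the sites of YY1, both searched on both strands, and the matches do not overlap. The windows lie at chr14:52257731-52258010 (minus strand) for Chd8, chrX:20703659-20703938 (plus strand) for Usp11, and chr10:81600871-81601150 and chr10:81597338-81597617 (minus strand) for the 2 starts of Tle6. Entpd4 has no entry.
Chd8: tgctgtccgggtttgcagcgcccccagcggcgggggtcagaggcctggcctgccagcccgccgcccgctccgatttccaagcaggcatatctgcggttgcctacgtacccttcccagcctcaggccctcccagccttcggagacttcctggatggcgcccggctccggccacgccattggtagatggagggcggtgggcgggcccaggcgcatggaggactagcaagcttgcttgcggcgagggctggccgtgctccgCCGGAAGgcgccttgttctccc
Usp11: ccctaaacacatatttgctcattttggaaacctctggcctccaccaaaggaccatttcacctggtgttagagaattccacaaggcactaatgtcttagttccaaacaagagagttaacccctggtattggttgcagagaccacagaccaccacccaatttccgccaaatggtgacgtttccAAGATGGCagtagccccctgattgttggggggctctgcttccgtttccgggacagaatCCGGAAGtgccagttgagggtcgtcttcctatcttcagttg
Tle6, first start: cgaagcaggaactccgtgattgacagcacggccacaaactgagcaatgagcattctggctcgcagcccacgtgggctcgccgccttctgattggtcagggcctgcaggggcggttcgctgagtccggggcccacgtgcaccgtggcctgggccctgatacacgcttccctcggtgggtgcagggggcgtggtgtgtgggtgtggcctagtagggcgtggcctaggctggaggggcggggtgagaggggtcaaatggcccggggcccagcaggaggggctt
Tle6, second start: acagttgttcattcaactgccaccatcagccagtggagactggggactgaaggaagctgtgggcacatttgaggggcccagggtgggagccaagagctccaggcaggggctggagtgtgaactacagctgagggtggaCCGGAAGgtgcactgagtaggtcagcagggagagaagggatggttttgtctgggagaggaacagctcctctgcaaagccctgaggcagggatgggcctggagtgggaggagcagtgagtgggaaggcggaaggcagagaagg
The Chd8 window holds 1 ETS core just after the start, the Usp11 window holds 1 YY1 core followed by 1 ETS core just before the start, and the second Tle6 window holds 1 ETS core. Among all windows of the same length for tested genes, 13.9% hold CCGGAAG and 2.88% hold AAGATGGC. Of the 24 genes named below for their small p, 21 have an entry, and 4 of their 26 windows (15.4%) hold the ETS core and 2 (7.69%) the YY1 core. A match describes the letters of the window and does not show binding.

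Chd8 (ENSMUSG00000053754, chr14:52198151-52257780, minus strand) measured 6747, 5905 and 6243 in HT 1 to 3 and 4225, 4046 and 4707 in WT 1 to 3. The lowest HT value lay well above the highest WT value. The log2 difference was 0.54 ± 0.066 (SE, n = 3 and 3, adjusted p = 0.0723 by limma), and it kept between 0.49 and 0.60 when any 1 library was left out. The values sum reads over the whole gene, so they do not separate the S62X copy from the wild-type copy and say nothing of protein. The same direction was present in the P25 males (0.70 ± 0.063) and in the P80 females (0.36 ± 0.046), which share no library with the P25 females, and neither interaction passed (unadjusted p = 0.127 for sex and 0.0507 for age).

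Usp11 (chrX:20703906-20720539), which encodes a ubiquitin-specific protease, measured 3492, 3545 and 3372 in HT 1 to 3 and 4561, 4304 and 4502 in WT 1 to 3. The 3 HT values lay close together and far below any WT value. The log2 difference was -0.36 ± 0.043 (SE, adjusted p = 0.0723 by limma), beside -0.26 ± 0.047 in P25 males and -0.34 ± 0.036 in P80 females.

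Entpd4 (chr14:69337174-69367270), an enzyme of the Golgi and lysosomes that hydrolyzes nucleoside di- and triphosphates, measured 3591, 3388 and 3488 in HT 1 to 3 and 4296, 4524 and 4563 in WT 1 to 3. Its HT and WT values were again tightly grouped, and the log2 difference was -0.35 ± 0.044 (SE, adjusted p = 0.0723 by limma), beside -0.40 ± 0.043 in P25 males and -0.42 ± 0.047 in P80 females. Entpd4 and Chd8 lie on the same chromosome, 17079394 bases apart. Entpd4 also overlaps a gene model on the other strand, Gm16867, and has a near-identical copy, Entpd4b, about which nothing was measured here, so its values are uncertain as to which copy they count. Gm16867 itself measured 269, 329 and 326 in HT and 397, 378 and 676 in WT.

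Tle6 (chr10:81590904-81601073), a member of the TLE family of transcriptional corepressors that is best known from oocytes, was expressed at a much lower level. It measured 96.5, 116 and 96.4 in HT 1 to 3 and 36.02, 40.2 and 41.7 in WT 1 to 3, a log2 difference of 1.36 ± 0.17 (SE, adjusted p = 0.0723 by limma). In P25 males Tle6 measured 131, 75.4 and 106 in HT and 86.6, 90.3 and 72.2 in WT, and in P80 females 63.0, 132 and 105 in HT and 83.9, 121 and 108 in WT. The HT females of P25 lay within the range of these other groups, and the WT females of P25 lay below all of them. At P0 the values ran from 77.2 to 139 in the HT brains of both sexes and from 21.7 to 80.1 in the WT brains. The difference between the genotypes of P25 females exceeded that of P25 males by 1.07 ± 0.27 on the log2 scale (unadjusted p = 0.00133, adjusted p = 0.9998) and that of P80 females by 1.47 ± 0.33 (unadjusted p = 0.000524, adjusted p = 0.683), so neither difference passed the adjustment.

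**Figure D2:**
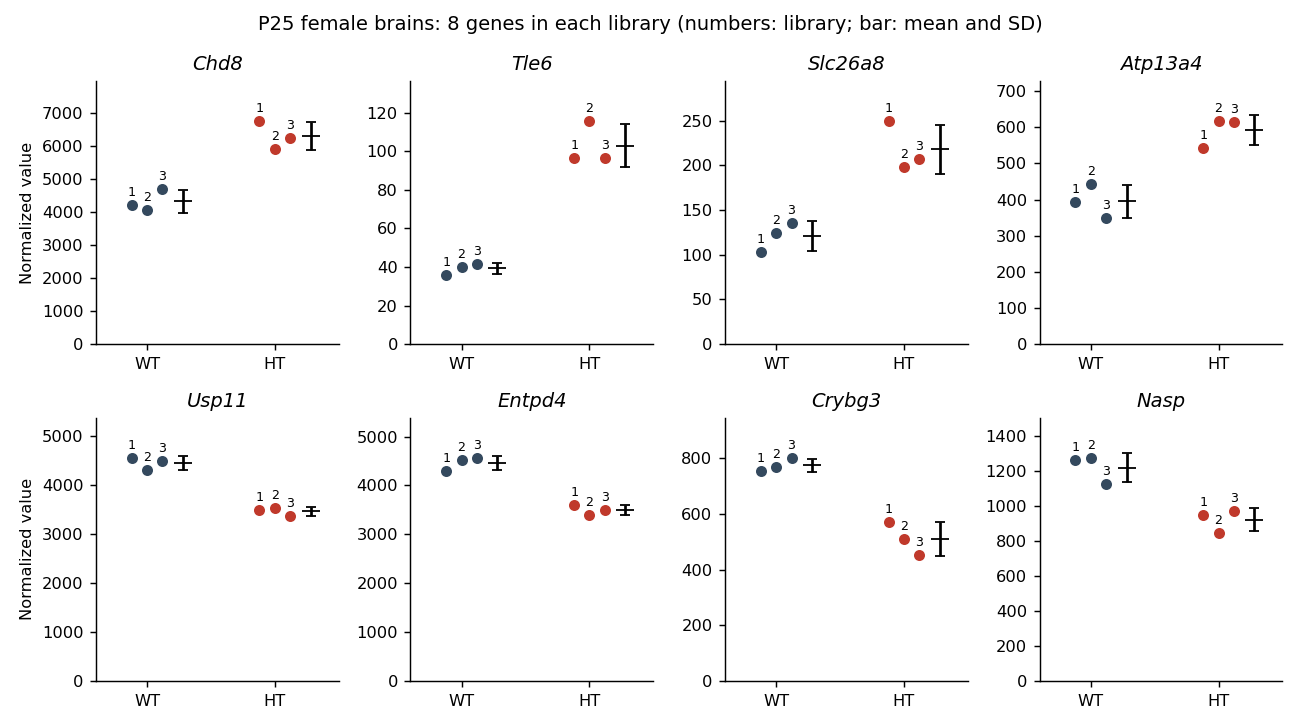
Normalized value (vertical axis, from 0) of 8 genes in the P25 female WT (dark) and HT (red) libraries, with the library number above each point and the mean and SD (n = 3) at the right of each group. In all 8 panels the HT and WT points do not overlap, with Tle6 at 96.4 to 116 in HT and 36.02 to 41.7 in WT. Tle6, Slc26a8, Atp13a4, Crybg3 and Nasp were named on the condition of no overlap.

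Further genes were named by a rule of small p, with 12 in each direction among genes whose mean was at least 100 and whose groups did not overlap, so the lack of overlap is no finding about them. Chd8 is 1 of the 12 that were higher in HT, and Usp11 and Entpd4 are among the 12 that were lower. Adjusted p ran from 0.197 to 0.824 for the other 21.

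Among the lower genes, Anp32a, an acidic nuclear phosphoprotein that binds histones, measured 4719, 4213 and 4477 in HT and 5426, 5387 and 5391 in WT (log2 difference -0.27 ± 0.047). Nasp, a histone chaperone, measured 946, 845 and 969 in HT and 1258, 1273 and 1122 in WT (-0.40 ± 0.074). For both every HT library lay below every WT library, as the naming rule required, and the WT values of Anp32a were close together. Hmgn1, a nucleosome-binding protein, differed by -0.27 ± 0.054, and Cdc73, a subunit of the PAF1 elongation complex, by -0.34 ± 0.072. In the P25 males the 4 differences were -0.026, -0.066, -0.074 and -0.049 in the same order, and in the P80 females -0.032, -0.060, -0.071 and -0.035, none of them with an unadjusted p under 0.05.

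On the side of higher values, Taf9, a subunit of the general transcription factor TFIID, measured 247, 330 and 361 in HT and 196, 154 and 137 in WT (0.94 ± 0.17). Tfap2b, a transcription factor of the AP-2 family found in midbrain and hindbrain neurons, measured 406, 418 and 454 in HT and 324, 323 and 321 in WT (0.40 ± 0.081). The WT values of Tfap2b were almost equal, and the HT values all lay above them, as the naming rule required. Hjurp, the chaperone that places the centromeric histone, differed by 0.23 ± 0.050.

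Also on the side of lower values, Emilin1, a glycoprotein of elastic fibers, measured 74.4, 51.3 and 63.3 in HT and 136, 117 and 161 in WT (-1.12 ± 0.19). Its highest HT value lay clearly under the lowest WT value, as the naming rule required. Its mean over all libraries, 100.6, reached the minimum of 100 in that rule only through the WT libraries (mean 138, against 63.0 in HT). The place of Emilin1 among the named genes therefore supports nothing. Celsr3, a cadherin that guides axon tracts, differed by -0.21 ± 0.045, Crybg3, which carries crystallin domains, by -0.61 ± 0.089, and Fcrls, a receptor of microglia, by -0.58 ± 0.11. Trim17, an E3 ubiquitin ligase of neurons, differed by -0.51 ± 0.11.

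Other genes on the higher side encode transporters, enzymes and receptors. Atp13a4, a P5-type ATPase, measured 544, 617 and 614 in HT and 392.02, 442 and 350 in WT (0.59 ± 0.099), and Slc26a8, an anion transporter best known from sperm, measured 249, 198 and 207 in HT and 103, 125 and 135 in WT (0.85 ± 0.15). Every HT value of these genes exceeded every WT value, as the naming rule required. Gclm, the modifier subunit of the enzyme that starts glutathione synthesis, differed by 0.25 ± 0.054, Ahcyl2 by 0.18 ± 0.039, the cytokine receptor gene Crlf2 by 0.40 ± 0.089, the serine protease gene Prss36 by 0.62 ± 0.14 and Drc3, a protein of the ciliary dynein regulatory complex, by 0.41 ± 0.086. Cnpy1, a gene of the midbrain-hindbrain boundary and cerebellum, measured 3941, 4105 and 4215 in HT and 3508, 3491 and 3470 in WT (0.23 ± 0.042).

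Of the 4 largest differences in each direction under an unadjusted p of 0.01, those of Tle6 and Emilin1 are given above, and the other 6 belonged to genes of low values. Hoxb6, a patterning gene of the hindbrain and spinal cord, measured 13.01, 22.03 and 36.2 in HT and 3.68, 1.25 and 8.25 in WT (2.32 ± 0.58). Mfap5, a microfibril protein, differed by 1.90 ± 0.44 and Styk1, a receptor-like kinase, by 1.40 ± 0.42. Downward, Ces1d, a carboxylesterase, differed by -1.45 ± 0.41, Artn, a ligand of the GDNF family, by -1.31 ± 0.36 and Defb42, a β-defensin, by -1.05 ± 0.28. At these low values a difference rests on few reads, and adjusted p was 0.824 for Mfap5 and 0.8265 for the other 5. The WT means of Hoxb6, Mfap5 and Styk1 (4.39, 6.52 and 9.31) and the HT mean of Ces1d (5.13) lay below 10. These genes thus passed the filter only through the genotype where they were high, and nothing is concluded from their differences.

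The 24 genes of small p were then read in libraries that had no part in choosing them. In P25 males 21 of the 24 had the same direction, against 53.6% of the 13208 genes whose mean reached 100 in both sets. Of the 21, 8 (Chd8, Crlf2, Entpd4, Hjurp, Prss36, Slc26a8, Trim17 and Usp11) had an unadjusted p under 0.05. Among the 13208 genes, 277 had the same direction and such a p, and 3.48% of all genes tested in males had it in either direction. In P80 females 18 of the 24 had the same direction, against 57.9% of 13111 genes, and 7 (Chd8, Crlf2, Drc3, Entpd4, Prss36, Taf9 and Usp11) had an unadjusted p under 0.05 in that direction, where 11.3% of all genes tested did so in either direction. Among the 13111 genes, 1225 had the same direction and such a p. Tfap2b passed it in the opposite direction (-0.39 ± 0.11). Without Chd8, Usp11 and Entpd4, 18 of 21 had the same direction in P25 males, 5 of them with an unadjusted p under 0.05, and 15 of 21 in P80 females, 4 of them under it. Crlf2 and Prss36 thus accompanied Chd8, Usp11 and Entpd4 in all 3 sets, with Crlf2 at 0.28 ± 0.098 in P25 males and 0.43 ± 0.074 in P80 females, and Prss36 at 0.27 ± 0.11 and 0.42 ± 0.14. Most of the others were smaller outside the P25 females, as the plot of the 3 sets shows, and since the genes were picked for a small p in P25 females their differences there are biased away from 0.

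**Figure D3:**
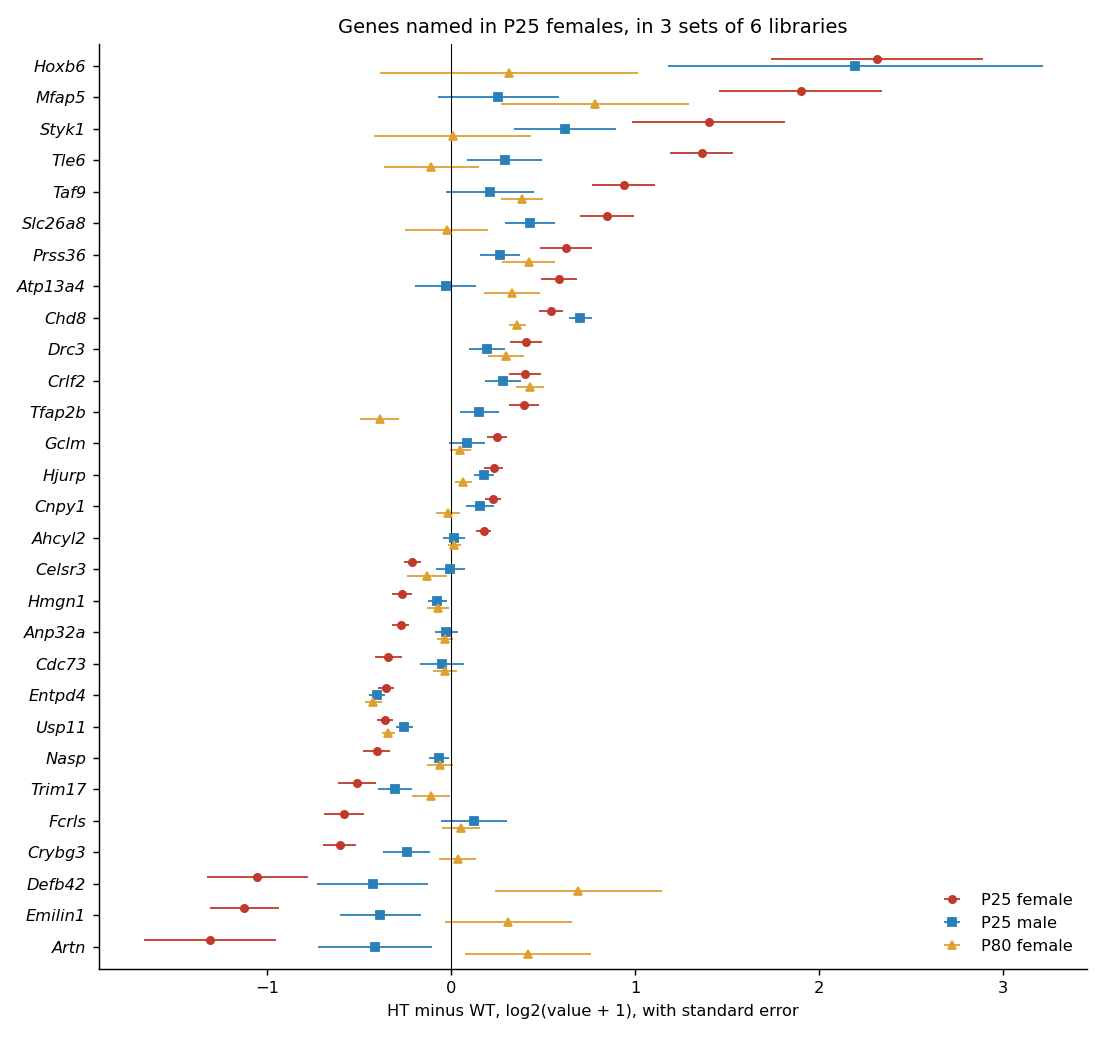
HT minus WT difference of log2(value + 1) with its standard error (horizontal axis) in P25 females (red circles), P25 males (blue squares) and P80 females (yellow triangles), 6 libraries each, for named genes of small p or large difference. Chd8, Usp11, Entpd4, Crlf2 and Prss36 lie on the same side of 0 in all 3 sets, while Tfap2b is at 0.40 in P25 females and -0.39 in P80 females.

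Chd8 itself was the one member of its family with a distinct difference. Among the 10 CHD genes 5 were higher and 5 lower in HT, with a median log2 difference of -0.00033 (-0.0134 to 0.0383 when 1 library was left out, and 0.0244 with 6 of 10 higher without HT 2 and WT 1), and the value for all genes tested was -0.0021. Chd4, an ATPase of the NuRD complex, measured 7300, 7648 and 7329 in HT and 7532, 8088 and 8514 in WT (-0.11 ± 0.050, unadjusted p = 0.0452), and its groups overlapped. The others had an unadjusted p of 0.175 or more. Around Chd8 on chromosome 14, 1 of the 15 genes tested within 1 Mb had an unadjusted p under 0.05, a share of 6.67% beside 6.02% on the other chromosomes. This was Tmem253, at 11.9, 12.2 and 11.5 in HT and 22.5, 16.4 and 26.3 in WT.

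Gene lists of the pathways, cell types and regions of interest are described by the number of their members that were higher or lower, without a test, beside the 49.1% of all genes that were higher in HT. A score gives their level in each library, as the mean over the list of each gene's log2 deviation from its own mean, less the median deviation of all genes. Among the 35 lists, scores did not overlap between the genotypes for the CHD family (HT higher), the mitochondrial ribosome and the splicing factors. The CHD family score is a mean over 10 genes that include Chd8 itself (0.54). The median of this list was -0.00033 with 5 genes higher and 5 lower, so its separated score is no trait of the family. For single genes the share without overlap was 6.12% with HT above and 5.77% with HT below. The 3 of 35 lists are not a larger share than that of single genes in both directions together. With 3 libraries against 3 an exact permutation test cannot go below 0.1, so a separated score is a description.

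RNA splicing factors were more often lower in HT. Of 75 genes, 55 were lower in HT, with a median log2 difference of -0.0387, and 11 of them had an unadjusted p under 0.05 against 1 on the higher side, beside 3.03% and 2.98% of all genes. The score was -0.0173, -0.0235 and -0.0194 in HT 1 to 3 and 0.00607, 0.0266 and 0.0203 in WT 1 to 3, so that every HT library lay below every WT library. Hnrnpa1, which represses splice sites, measured 7029, 6573 and 7410 in HT and 8342, 8099 and 7907 in WT (-0.21 ± 0.049). Srsf6 and Srsf7, which belong to the SR proteins that promote exon inclusion, differed by -0.16 ± 0.042 and -0.17 ± 0.043, and Taf15, an RNA-binding protein, by -0.26 ± 0.067. U2af2, which recognizes the 3′ splice site, measured 4394, 4246 and 4301 in HT and 4639, 4685 and 4753 in WT. The 2 most abundant genes of the list, Ddx5 and Srrm2, differed by -0.050 ± 0.040 and 0.086 ± 0.049. Of the 20 genes that were higher in HT, Rbm3, a cold-inducible RNA-binding protein, differed most, at 0.31 ± 0.13 with overlapping groups. Without HT 2 and WT 1, 60 of the 75 were lower with a median of -0.0354, and leaving out 1 library put the median between -0.0449 (without WT 1) and -0.0224 (without HT 2). The median was -0.0191 in P25 males, where the scores overlapped, and -0.0565 in P80 females, where they did not.

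Genes of protein synthesis, protein breakdown and respiration were more often higher in HT. The mitochondrial ribosome had 53 of 77 genes higher, with a median of 0.0269 and scores of 0.0128, 0.0115 and 0.0388 in HT and -0.00376, -0.0159 and -0.0507 in WT, which do not overlap. Mrpl30, a protein of its large subunit, measured 1040, 1037 and 1096 in HT and 852, 922 and 925 in WT (0.23 ± 0.060). Mrpl3 and Mrps25, the 2 most abundant genes of the list, differed by 0.047 ± 0.048 and -0.026 ± 0.063. Proteasome genes were higher in 29 of 35 with a median of 0.0463. The member with the smallest p was Psma6, a subunit of the core particle, at 2524, 2504 and 2585 in HT and 2314, 2234 and 2189 in WT (0.18 ± 0.044). The 2 most abundant, Psmd2 and Psmc5, differed by 0.021 ± 0.038 and 0.0096 ± 0.042. Oxidative phosphorylation had 50 of 76 genes higher, 10 of them with an unadjusted p under 0.05 against 1 lower (2.98% and 3.03% of all genes), with a median of 0.0268. Atp5c1, a subunit of ATP synthase, differed by 0.12 ± 0.038 and Sdhb, of complex II, by 0.11 ± 0.040. Atp5b and Atp5a1, the 2 most abundant genes of this list, differed by only 0.037 ± 0.043 and 0.012 ± 0.039. Cytosolic ribosomal proteins were higher in 51 of 79 with a median of 0.0208. The scores of these last 3 lists overlapped between the genotypes, HT 1 being as low as the WT libraries. Single libraries weighed on all 4 medians. Without HT 3 the median was 0.0034 for the cytosolic ribosome and 0.0095 for oxidative phosphorylation, and without HT 1 it was 0.0557 and 0.0433. It was 0.0118 for the cytosolic ribosome without HT 2. The median of the mitochondrial ribosome lay between 0.0242 (without HT 3) and 0.0424 (without WT 1), and that of the proteasome between 0.0301 (without HT 2) and 0.0587 (without HT 1). Without HT 2 and WT 1 together, proteasome genes were higher in 22 of 35 (median 0.0305) and oxidative phosphorylation genes in 59 of 76 (0.0483).

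The same lists were counted in the other sets of libraries. In P25 males, where 47.7% of all genes were higher in HT, 13 of 79 cytosolic ribosomal genes, 30 of 77 mitochondrial ribosomal genes, 19 of 76 oxidative phosphorylation genes and 17 of 35 proteasome genes were higher. In P80 females, where the share of all genes was 47.8%, the counts were 77, 64, 75 and 29 of the same lists. The median for cytosolic ribosomal genes was -0.0537 in P25 males, 0.0208 in P25 females and 0.114 in P80 females. Whether these list differences differ between the sets was not tested.

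**Figure D4:**
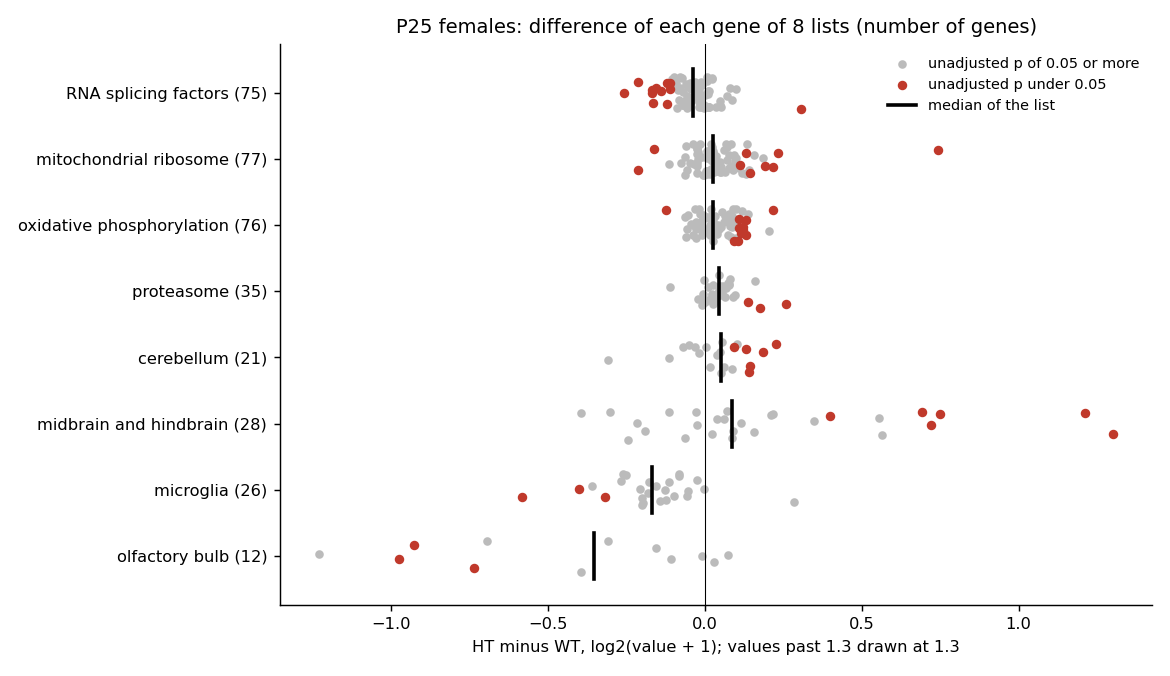
HT minus WT difference of log2(value + 1) in P25 females (horizontal axis) for each tested gene of 8 lists, with genes of unadjusted p under 0.05 in red, the median of each list as a black bar, and the number of genes in parentheses. Splicing factors lie mostly below 0 (median -0.0387), proteasome genes mostly above it (0.0463), and microglial and olfactory bulb genes farther below (-0.168 and -0.352).

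The pathways named with CHD8 showed little. Wnt/β-catenin genes were higher in 35 of 65 with a median of 0.0054, p53 targets in 14 of 27 with 0.0049, chromatin remodelers in 21 of 48 with -0.0097, and MLL/COMPASS genes in 8 of 19 with -0.0229. When 1 library was left out these medians lay between -0.0368 and 0.0217, and those of the first 3 lists took both signs. Without HT 2 and WT 1, p53 targets were higher in 10 of 27 (-0.0592), chromatin remodelers in 25 of 48 (0.0018) and MLL/COMPASS genes in 6 of 19 (-0.0143). Within the Wnt list, Tcf7l2, a transcription factor that pairs with β-catenin and marks the thalamus, measured 1011, 1067 and 1113 in HT and 922, 911 and 821 in WT (0.27 ± 0.067), and Apc, a scaffold of the β-catenin destruction complex, measured 26930, 25811 and 26832 in HT and 24017, 24750 and 24073 in WT (0.13 ± 0.037). Both had every HT library above every WT library. Of the 65 Wnt genes, 5 had all HT libraries above and 3 had them all below WT, beside 6.12% and 5.77% of all genes. An unadjusted p under 0.05 was found for 4 higher and 1 lower, beside 2.98% and 3.03%. Rrm2b, a ribonucleotide reductase subunit that p53 induces, differed by 0.17 ± 0.051.

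Autism risk genes were balanced. Of 152 tested, 76 were higher and 76 lower with a median of 0.00036, and 5 and 7 had an unadjusted p under 0.05 in the 2 directions, beside 2.98% and 3.03% of all genes. Scn1a, a sodium channel of fast-spiking neurons and a gene of epilepsy and autism, measured 7764, 8003 and 7758 in HT and 6705, 7175 and 7314 in WT (0.15 ± 0.043). Synaptic genes were close to 0 as lists, with presynaptic release genes higher in 20 of 40 (median -0.0044), excitatory postsynaptic genes in 16 of 48 (-0.0168) and GABA and glycine receptors in 14 of 23 (0.024). Camk2a, the most abundant of the postsynaptic list, measured 49308, 45400 and 50321 in HT and 45344, 49172 and 47750 in WT. Leaving out HT 2 and WT 1 put 26 of the 48 postsynaptic genes higher with a median of 0.0075, 23 of the 40 presynaptic genes with 0.0042 and 82 of the 152 autism risk genes with 0.0043. With 1 library left out the medians of these 4 lists took both signs, between -0.0322 and 0.0381, and the postsynaptic one was above 0 only without HT 2 (0.0216). Nptx2, an activity-regulated pentraxin that belongs to the immediate early list and not to these lists, differed by -0.22 ± 0.068.

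Among cell types, the microglial list was the most one-sided, with 25 of 26 genes lower in HT and a median of -0.168. In a bulk sample fewer cells of a type and less RNA per cell cannot be told apart. The score was -0.165, 0.155 and -0.246 in HT 1 to 3 and 0.247, -0.035 and 0.0365 in WT 1 to 3, and HT 2, a library that stood apart, was the second highest of all 6. Summed over the list, the values were 10875, 14291 and 10140 in HT and 14392, 12057 and 12533 in WT and no gene of the list was at 0. Only Fcrls, Olfml3 and Ptprc had an unadjusted p under 0.05 (3 of 26, beside 3.03% of all genes on the lower side), while the defining marker P2ry12 measured 613, 802 and 540 in HT and 774, 659 and 703 in WT. Without HT 2 and WT 1, 22 of 26 were lower with a median of -0.243. The median was -0.313 without HT 2 alone, -0.0718 without HT 3 and -0.0825 without WT 1. In P25 males 19 of 26 microglial genes were higher, with a median of 0.0581, and in P80 females 12 of 26 were higher, with -0.0266.

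Neuronal and other glial lists had smaller medians. Excitatory neuron markers were higher in 17 of 20 with a median of 0.0334, among them the upper-layer gene Cux2 at 2853, 2717 and 2863 in HT and 2256, 2514 and 2657 in WT (0.19 ± 0.062). Oligodendrocyte markers were higher in 20 of 28 with a median of 0.0463, and Mbp measured 222509, 226367 and 259483 in HT and 199258, 220169 and 214529 in WT. The oligodendrocyte score of HT 3, 0.138, was the highest by far, and those of the other 5 libraries lay between -0.0579 and 0.0123. Inhibitory neuron markers were higher in 9 of 21 (median -0.0226), astrocyte markers in 17 of 29 (0.0178), oligodendrocyte precursor markers in 14 of 17 (0.0542) and vascular markers in 18 of 26 (0.0317). Single libraries took several of these medians to about 0 or past it. The median was 0.0017 without HT 3 and 0.0886 without WT 3 for oligodendrocytes, and 0.0064 without HT 1 and 0.0628 without HT 2 for excitatory neurons. Without HT 3 it was 0.0202 for inhibitory neurons, -0.0416 for astrocytes and -0.0052 for vascular markers. At the other end, with a different library left out, these medians reached -0.0775, 0.0495 and 0.0546 in the same order. For oligodendrocyte precursors the median lay between 0.0225 (without WT 2) and 0.0721 (without HT 1). With HT 2 and WT 1 both left out, inhibitory neuron markers were higher in 7 of 21 (-0.0579), astrocyte markers in 19 of 29 (0.0388), oligodendrocyte precursor markers in 10 of 17 (0.0126) and vascular markers in 19 of 26 (0.0714). Ndnf, a marker of layer 1 interneurons, measured 618, 761 and 737 in HT and 858, 826 and 995 in WT (-0.34 ± 0.097).

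Markers of brain regions varied between single libraries. Olfactory bulb genes were lower in HT for 10 of 12, with a median of -0.352, but the score was -0.207, 0.249 and -0.723 in HT 1 to 3 and 0.438, 0.348 and -0.112 in WT 1 to 3. Doc2g, a gene of mitral and tufted cells, measured 295, 588 and 212 in HT and 642, 665 and 399 in WT. HT 3 thus held the lowest olfactory signal and HT 2 one close to the WT libraries. The olfactory median was -0.167 without HT 3 and -0.58 without HT 2. Cerebellar genes were higher in 15 of 21 with a median of 0.05, 6 of them with an unadjusted p under 0.05 (2.98% of all genes on the higher side), and the scores were 0.018, -0.0174 and 0.0533 in HT and -0.0213, -0.0291 and -0.0107 in WT, where HT 2 fell among the WT libraries. The cerebellar median was 0.103 without HT 2, 0.0248 without HT 3 or without WT 1, and 0.0829 without HT 2 and WT 1 together (16 of 21 higher). Pcp2, a Purkinje cell gene, measured 1869, 2072 and 2132 in HT and 1908, 1791 and 1648 in WT. Calb1, the most abundant gene of the list, measured 8796, 8604 and 8630 in HT and 8937, 8782 and 8661 in WT (-0.019 ± 0.036).

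Midbrain and hindbrain genes were higher in 19 of 28 with a median of 0.0878, and 6 had an unadjusted p under 0.05, all of them higher, beside 2.98% of all genes. Among them were Tfap2b, Hoxb6, Hoxa5, Gata3 and Hoxb5, transcription factors of the posterior brain. Hoxb6 (WT mean 4.39) reached the filter of a mean of 10 only through the HT libraries, so its place in this count supports nothing. Hoxa5 measured 53.7, 55.2 and 95.6 in HT and 38.5, 19.8 and 28.2 in WT (1.21 ± 0.31), and Gata3 measured 114, 99.1 and 67.5 in HT and 56.02, 59.0 and 53.9 in WT (0.69 ± 0.21). The list as a whole overlapped, with scores of -0.0675, 0.199 and 0.243 in HT and -0.134, -0.29 and 0.0418 in WT, and its median lay between 0.0452 (without WT 2) and 0.215 (without WT 3). How much brainstem each dissected brain held is not stated, and its part in the values of Hoxb6, Hoxa5 and the others was not tested. Telencephalic genes were higher in 13 of 20 (median 0.0279) and diencephalic genes in 10 of 20 (0.0153). The telencephalic median turned to -0.0234 without HT 1 and to -0.0133 without WT 1 and was 0.0839 without HT 3, and the diencephalic one lay between -0.0024 (without WT 2) and 0.0532 (without HT 3). Telencephalic genes were higher in 8 of 20 (-0.0065) and diencephalic genes in 12 of 20 (0.043) without HT 2 and WT 1.

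**Figure D5:**
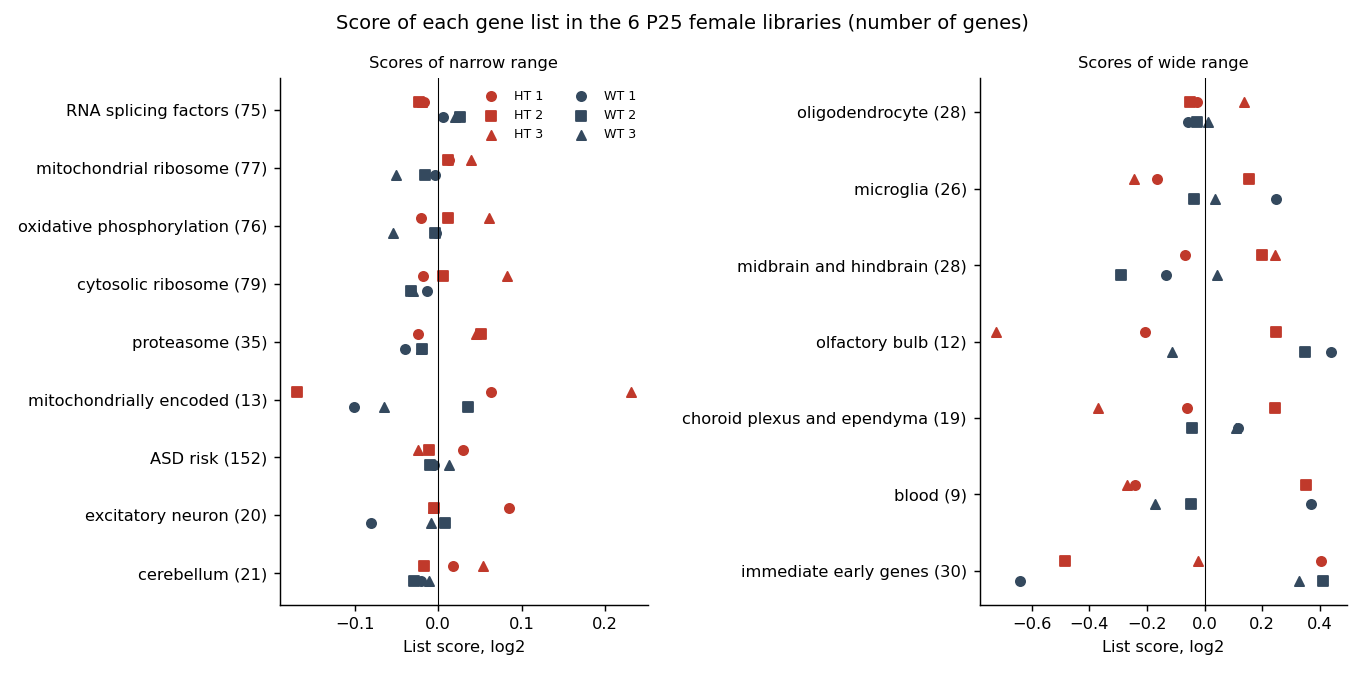
Score of 16 gene lists (horizontal axis, log2) in the 3 HT (red) and 3 WT (dark) P25 female libraries, with library 1 as a circle, 2 as a square and 3 as a triangle, and the number of genes in parentheses. Scores of splicing factors and the mitochondrial ribosome do not overlap between the genotypes. HT 2 (red squares) and WT 1 (dark circles) lie together at the low end for immediate early genes and at the high end for blood and microglia.

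A direct comparison with the males asked whether the difference between the genotypes at P25 depends on sex. The sex by genotype interaction in the 12 P25 libraries passed an adjusted p of 0.05 for no gene (limma, 18146 genes, 0% called), and 615 genes (3.39%) had an unadjusted p under 0.05. Mycbpap, a gene of testis and cilia, had the smallest p among genes with a mean of at least 100 and no clone or pseudogene name. It measured 82.6, 52.9 and 73.4 in HT females and 113, 131 and 115 in WT females, but 199, 142 and 183 in HT males and 99.0, 137 and 146 in WT males. The log2 difference was thus -0.79 in females and 0.46 in males (adjusted p of the interaction = 0.9998 by limma). Among the other 5 genes of smallest p with a mean of at least 100 over these libraries, Bag2, a co-chaperone, differed by 0.27 in females and -0.32 in males, and Rps7, a ribosomal protein, by 0.14 and -0.16. Fbxo46, Gfod2 and Trim45 were lower in HT females (-0.32, -0.27 and -0.23) and higher in HT males (0.13, 0.25 and 0.25). Across the same 13208 genes, the differences of the sexes had a Pearson r of 0.0847 and a Spearman rho of 0.102, given as a description since genes are not independent.

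The comparison with adult females asked whether the difference depends on age. At P80 versus P25, 2 of 18227 genes (0.011%) passed an adjusted p of 0.05 for the age by genotype interaction, and 1075 (5.9%) had an unadjusted p under 0.05. Mon2, which takes part in trafficking between Golgi and endosomes, measured 3228, 3787 and 3573 in HT and 3137, 3128 and 2976 in WT at P25, and 2690, 2896 and 2815 in HT and 3543, 3879 and 3599 in WT at P80. Its HT libraries lay above the WT libraries in the juvenile females and below them in the adults, a difference of 0.58 ± 0.081 between the ages (adjusted p = 0.0432). The call held without P25 HT 1 (adjusted p = 0.0111) and was lost without any other of the 12 libraries (0.0511 to 0.191) and without P25 HT 2 and WT 1 together (0.107). Gm47924, the other gene, was listed at 0 in all 12 P25 libraries and in the P80 WT females and at 48.1, 51.4 and 92.9 in the P80 HT females. It reached the filter of a mean of 10 only through the P80 HT females, so nothing is concluded from its call.

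Next by p were Ccdc62, at -0.40 in P25 females and 0.80 in P80 females, and Tfap2b, at 0.40 and -0.39 (adjusted p = 0.136 and 0.152). In P80 females Tfap2b measured 316, 259 and 321 in HT and 421, 375 and 376 in WT, so its genotypes were separated at both ages and in opposite order. Tet2, an enzyme that oxidizes 5-methylcytosine, differed by 0.093 at P25 and -0.28 at P80, and Cux2 by 0.19 and -0.28. The mitochondrial gene mt-Co2 differed by -0.0037 at P25, where it measured 165747, 136176 and 186268 in HT and 164901, 162156 and 158426 in WT, and by 0.95 at P80. Over the 13111 genes compared above, the juvenile and adult differences of the females had a Pearson r of 0.145 and a Spearman rho of 0.21.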

How the data were processed

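Whole brain RNA of C57BL/6 mice was sequenced by the authors as paired-end TruSeq libraries (HiSeq). Per the study's methods and the submitters' processing notes, transcripts were quantified on GRCm38 with Salmon 1.1.0, imported with tximport and normalized with DESeq2 1.26.0. The deposited signal is the estimated count of a gene divided by normalization factors, for 29799 genes and all 36 libraries on one scale, and every column was matched to a sample (0 unmatched). The gene annotation used is not given in the sources used here. Because these values are not counts, they were tested with limma 3.58.1 in R 4.3.3 (linear model with a mean trend) on log2(value + 1), in genes whose mean in a fit's libraries reached 10, two-sided, with Benjamini-Hochberg adjustment over all of them and a threshold of 0.05. A fold change on this scale understates that of low genes. For a single value, the exact permutation test of 3 against 3 cannot go below 0.1 and was not used. The paper gives an average read depth for the study. The depth of each library is known here only as its sum of normalized values, so no counting intervals were given.

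The P25 females, the P25 males and the P80 females are separate sets of 6 libraries. Samples were grouped by their titles. For the oldest mice the titles say P80 and a description says P56, and P80 was used. The members and the 35 gene lists were chosen with earlier results of these data known. Genes were named by rule: Chd8, its family, Usp11 and Entpd4, the 12 smallest p in each direction (mean of at least 100, no overlap, a gene symbol that is not a clone or pseudogene name), the 4 largest differences in each direction under an unadjusted p of 0.01 (no overlap, the same kind of symbol), the 2 most abundant members of each list and members under 0.01, the 6 smallest p of each interaction (mean of at least 100, the same kind of symbol), sex-linked genes, and genes within 1 Mb of Chd8. Genes outside it, such as list members with an unadjusted p between 0.01 and 0.05, were chosen after their values were seen. Some genes that the rule names are not reported here. Coordinates are those of GENCODE vM21 (GRCm38), in which 29747 gene IDs were found. The scripts were tested on simulated data. Alternatives were other filters, pseudocounts of 0.1 and 10, 2 other scalings, sample weights, a replicate block, larger models and the omission of each library.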

Additional observations from a re-analysis of the deposited data

Results flagged for a closer look

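A pair of genes passed the age by genotype interaction in females (limma, adjusted p = 0.0432 for each). For Mon2 it was larger at P25 than at P80 by 0.58 on the log2 scale, with HT above WT in 3 of 3 juvenile and below WT in 3 of 3 adult libraries. The Mon2 call was lost in 16 of 21 alternatives, among them a minimum mean of 100 (adjusted p = 0.0586), a pseudocount of 0.1 (0.0883) and quantile normalization (0.121), with a range of 0.0111 to 0.263 over all of them. For Gm47924, a gene model with no assigned function, the P25 difference minus the P80 difference was -5.96 on the log2 scale. This only reflects that the gene is listed at 0 in all P25 libraries and in P80 WT females, so the size has no meaning as a fold. Gm47924 reached the filter of a mean of 10 only through the P80 HT females, so nothing is concluded from its call. Its call held in 4 of the 21 alternatives.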

How the results depend on the processing

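For P25 females, the count of genes past an adjusted p of 0.05 was 0 with no filter, with a minimum mean of 100, with either pseudocount, under both other scalings, with the replicate block and in the model of all 36 libraries. It became 3 with sample weights (Chd8, Usp11 and Entpd4) and 4 in the model of the 12 P25 libraries (these and Tle6). Leaving out 1 library gave 0 to 2 genes, where the 2 without HT 2 were Gm10288 and Rps27rt and the 1 without WT 2 was Zc3h11a. Leaving out HT 2 and WT 1 together, an alternative chosen after seeing the data, gave 4 (Bc1, Gm10288, Gm15429 and Rps27rt). The sex by genotype interaction had 0 genes except for 1 without P25 female HT 2 (Gm10288), 1 without P25 female WT 3 (Gm9794) and 2 without HT 2 and WT 1, a range of 0 to 1 over single libraries. The age by genotype interaction had 0 genes with a minimum mean of 100, with a pseudocount of 0.1, with quantile normalization and with the replicate block. It had 3 without P25 HT 2 and WT 1 together (Bc1, Gm10288 and Rps27rt), and 0 to 2 when 1 library was left out. Those called were Mon2 without P25 HT 1, and Gm10288 and Rps27rt without P25 HT 2. At P80, Prl and Tshb were called without HT 1, and Gm14303 without WT 1. The cause of these differences was not tested. The replicate numbers do not pair the samples: the correlations of deviations between HT and WT libraries of the same number were -0.0688, -0.145 and 0.00688. The replicate block left the P25 female count at 0 and gave 923 genes with an unadjusted p under 0.05 in place of 1094. Of 784 values under the alternatives for 47 genes named for a small p or a large difference, 0 reversed and 7 passed the threshold. No gene had passed it at first and the genes were chosen for their separation, so this is no sign of stability. Other scalings moved the median of all genes from -0.0021 to between -0.0017 and 0.0011. The depth of each library is known here only as a sum of normalized values. Its part in the wider standard errors of genes with a mean under 100 (median 0.29) was not tested.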

Other observations

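In a few transcripts outside the naming rule, HT 2 or WT 1 stood apart from the other libraries of its genotype. They are named here because their values were seen. The processed pseudogene Gm10288 was at 0 in HT 1 and HT 3 and at 121 in HT 2, against 182, 221 and 186 in WT 1 to 3. All its HT values lay below its WT values. Rps27rt, a retrotransposed copy of a ribosomal protein gene, measured 811, 1331 and 786 in HT 1 to 3 and 1320, 1271 and 1234 in WT 1 to 3, so here HT 2 sat with the WT libraries. Both share sequence with other gene copies, and estimated counts of such copies are uncertain. Bc1, a small RNA of neuronal dendrites, measured 192, 88.4 and 200 in HT and 177, 20.3 and 31.5 in WT, where WT 1 sat with HT 1 and HT 3.

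Lists of cells at the border of the brain varied with single libraries. Choroid plexus and ependymal genes were lower in HT for 14 of 19 with a median of -0.111, but Ttr, the transthyretin gene of the choroid plexus, measured 11333, 16173 and 9244 in HT and 13020, 12090 and 14778 in WT. Genes of the meninges were higher in 8 of 19 (median -0.0271), extracellular matrix genes in 19 of 61 (-0.0333), and blood genes in 3 of 9 (-0.0132). Of 18 pituitary genes only 6 reached the mean of 10, and 2 of those were higher in HT (median -0.164, and between -0.0931 and 0.0396 when 1 library was left out). Mitochondrially encoded genes were higher in 10 of 13 (median 0.0606) with a wide score range, from -0.17 in HT 2 to 0.231 in HT 3. Circadian genes were higher in 15 of 18 (0.0268) and immediate early genes in 10 of 30 (-0.047), and without HT 2 and WT 1 the latter were higher in 4 of 30 (-0.17). With 1 library left out the medians took both signs for choroid plexus and ependyma (-0.172, and 0.0311 without HT 3) and for blood (-0.263 to 0.134). They also did so for mitochondrially encoded genes (0.146, and -0.022 without HT 3) and immediate early genes (-0.36 to 0.151). The median lay between 0.00045 (without WT 1) and 0.0597 for circadian genes. It lay between -0.069 and -0.0010 (without WT 1) for the meninges, and between -0.0699 and -0.0185 (without WT 1) for the matrix. Without HT 2 and WT 1 the median was -0.196 for choroid plexus and ependyma (5 of 19 higher), -0.0689 for blood (3 of 9) and -0.0029 for the meninges (9 of 19). It was -0.0168 for the matrix (26 of 61), 0.149 for mitochondrially encoded genes (12 of 13) and -0.0116 for the 5 pituitary genes then tested (2 higher and 3 lower). Xist, the sex-linked gene with a difference, measured 27582, 27373 and 27506 in HT and 32264.5, 30111 and 29755 in WT (-0.16 ± 0.041).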
